A study of Homo sapiens with 45 samples.

Results

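The genes described here are 10 genes of telomere maintenance: TERT, DKC1, ATRX, DAXX, H3-3A, SLX4IP, TERF1, TERF2, POT1 and ACD. They were taken by name, not by a threshold on a measured value, from the 41582 genes that the tables cover, and each was measured by summing its RefSeq transcripts. RNA levels were read in 13 human sarcoma cell lines, with 3 poly(A) RNA libraries for each line. Of these, 7 are labelled Ewing sarcoma, namely A673, TC71, SKES1 (SK-ES-1), RDES (RD-ES), MHHES1 (MHH-ES-1), EW24 and EW3. The other 6 are labelled osteosarcoma, namely U2OS, SAOS2, G292 (G-292 clone A141B1), MG63, KHOS (KHOS/NP) and HOS-MNNG (MNNG/HOS Cl #5). The labels give no treatment for these 13 lines. Another 6 libraries were made from A673 cells with the hairpin sh908, which targets KCNN1 (a calcium-activated potassium channel gene), with 3 libraries without and 3 with doxycycline, the drug that switches the hairpin on. The label does not say whether the sh908 cells are a clone or a pool, or how long doxycycline was given.

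Telomeres are the repeat-ended tips of chromosomes, which shorten with replication. Most cancers keep them long with telomerase, a reverse transcriptase (TERT) acting on an RNA template and stabilised by dyskerin (DKC1), whereas a minority, common among osteosarcomas, copy telomeres from one another by recombination, a route called alternative lengthening of telomeres (ALT). ALT tumours often carry defects in ATRX or DAXX, the chaperone pair that places histone H3.3 at telomeres, and in every cell the shelterin proteins (TERF1, TERF2, POT1, ACD and partners) cover the repeats. G292, SAOS2 and U2OS are known as ALT lines and are read apart below. That status is background knowledge and is not in the labels, and no telomere length, telomerase activity or ALT assay was read here. HOS-MNNG and KHOS both derive from the HOS tumour, so the 3 other osteosarcoma lines stand for fewer than 3 tumours.

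TERT RNA separated the ALT lines from all other lines, and ATRX RNA parted the ALT lines from each other, by its amount in SAOS2 and by the transcript models that held it in U2OS. TERT had an estimated count of 0 in all libraries of G292 and SAOS2 and 4 counts in U2OS, and was present in the other 10 lines. SAOS2 held little ATRX RNA, 1.96 ± 0.0929 TPM (SD, n = 3). U2OS held 33.9 ± 8.24 TPM of ATRX, inside the range of the other lines, but 99.1% of its counts fell on a pair of RefSeq models that held at most 12.004% in the 11 lines other than U2OS and SAOS2. The third ALT line, G292, had neither ATRX pattern and had the lowest DAXX level of the 13 lines, 26.7 ± 1.29 TPM. TPM is a level scaled for transcript length and library depth.

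Library depth ran from 23132161 to 51413254 estimated counts in the Ewing lines, from 25834254 to 44911542 in the ALT lines, from 15974173 to 33938388 in the other osteosarcoma lines and from 16619617 to 24818664 in the sh908 cells. The labels were checked against tumour markers. The summed level of 6 Ewing markers was 1577 to 3046 TPM in Ewing lines and 270 to 1373 TPM in osteosarcoma lines. Single members such as CD99 and NR0B1 overlapped between the tumours: CD99 was at 290 TPM in EW24 and 944 TPM in MG63, and NR0B1 at 0.316 TPM in RDES and 0.651 TPM in MHHES1 against 2.45 TPM in U2OS. Of the fusion partners, FLI1 was at 28.7 TPM in SKES1 and 27.7 TPM in KHOS. The summed level of 6 osteosarcoma markers ran from 246 to 4843 TPM in osteosarcoma lines and from 71.2 to 938 TPM in Ewing lines, so the second list overlapped. The blood cell marker PTPRC was at or below 1.23 TPM in every line. The epithelial marker EPCAM was at most 2.17 TPM in the Ewing lines and ran from 0.0742 to 27.5 TPM in the osteosarcoma lines, highest in SAOS2, and its part in the results was not tested. The TC71 replicate 3 library stood apart from the other libraries of its line, with a mean correlation of 0.973 against 0.978 to 0.990 for the 36 libraries of the other lines (log2 TPM + 1 over 23770 genes). The replicate 3 libraries of the sh908 cells stood further apart, at 0.944 without and 0.949 with doxycycline. Without its replicate 3, the TC71 mean was 6.80 TPM for TERT in place of 6.16, 4.31 TPM for SLX4IP in place of 3.62, 280.3 TPM for H3-3A in place of 248 and 17.5 TPM for POT1 in place of 14.5, and further values without these libraries stand beside the results below. Nothing in the labels says that the libraries of a line came from separate cultures, so the SD over 3 libraries may be technical, and line sums were the units of the comparisons.

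**Figure D1:**
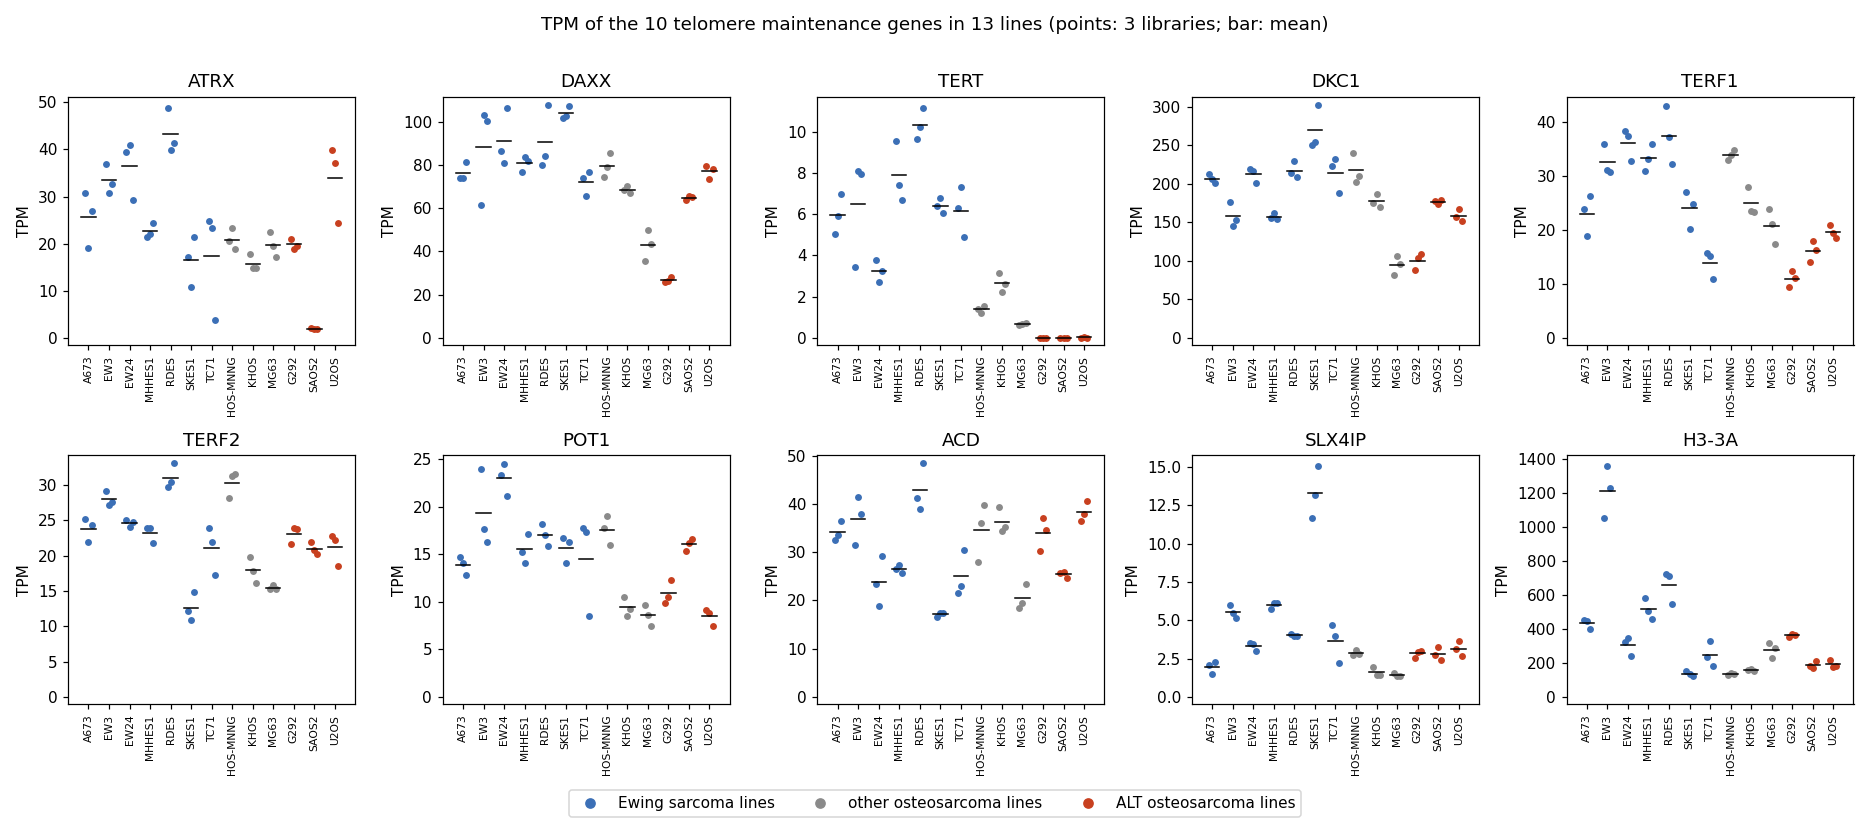
TPM of each gene (y axis, linear, 1 panel per gene) in the 13 lines (x axis), with a point per library, 3 per line, and a bar at their mean; Ewing lines in blue, other osteosarcoma lines in grey and ALT lines in red. TERT is at or near 0 in the ALT lines and at 0.668 to 10.3 TPM elsewhere, and ATRX is low in SAOS2 but not in G292 or U2OS.

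TERT, the catalytic subunit of telomerase (gene 7015, chr5:1253167-1295068, GRCh38.p14), varied most of the 10 genes among the lines relative to the libraries within a line: the SD of log2(TPM + 1) was 1.29 between lines and 0.216 within them. The 250 bases before the RefSeq start sites of TERT and of DKC1, are shown because these partners in telomerase parted here: TERT was at or near 0 in some lines while DKC1 was abundant in all. They are 5′ to 3′ on the gene's strand, from RefSeq on GRCh38.p14, and capitals mark an E box (CACGTG, the site letters of MYC and related factors) and GC boxes (GGGCGG or its reverse complement CCGCCC, the letters of SP1 sites).
TERT, chr5:1295069-1295318, minus strand: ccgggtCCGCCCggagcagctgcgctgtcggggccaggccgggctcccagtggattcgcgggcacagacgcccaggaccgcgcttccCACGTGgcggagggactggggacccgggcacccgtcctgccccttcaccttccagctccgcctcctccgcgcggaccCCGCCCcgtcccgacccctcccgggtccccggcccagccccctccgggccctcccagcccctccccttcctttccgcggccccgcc
DKC1, chrX:154762614-154762863, plus strand: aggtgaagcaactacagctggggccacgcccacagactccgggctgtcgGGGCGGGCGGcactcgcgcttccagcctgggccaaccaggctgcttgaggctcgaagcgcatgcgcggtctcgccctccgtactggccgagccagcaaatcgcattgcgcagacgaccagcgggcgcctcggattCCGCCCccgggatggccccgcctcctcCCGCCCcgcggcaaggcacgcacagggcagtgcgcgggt
The TERT stretch held 1 E box and 2 GC boxes, and the DKC1 stretch held 0 E boxes and 4 GC boxes, 2 of which overlap. Among 35116 RefSeq promoters of this length, 6.34% held the E box and 42.6% held a GC box on either strand. These matches describe letters and were not measured as bound sites. The sequence is the reference, not that of the lines.

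The 3 libraries of U2OS had TERT at 0.0186, 0.0421 and 0.0188 TPM, and those of G292 and SAOS2 were all at 0. MG63 had 0.642, 0.656 and 0.707 TPM, HOS-MNNG had 1.40, 1.20 and 1.56 TPM, and KHOS had 3.12, 2.22 and 2.60 TPM. The 3 ALT lines lay below the 3 other osteosarcoma lines with no overlap between any of their libraries. The Ewing lines followed upward from EW24 with 3.25 ± 0.521 TPM through A673 with 5.97 ± 0.960, TC71 with 6.16 ± 1.21, SKES1 with 6.42 ± 0.366, EW3 with 6.49 ± 2.66 and MHHES1 with 7.88 ± 1.502 to RDES with 10.3 ± 0.766 TPM (SD, n = 3 each). Neighbouring Ewing lines from MHHES1 down to A673 overlapped in their libraries, as did EW24 and KHOS, so their order within those stretches is not resolved. RDES stood above MHHES1 and A673 above EW24 without overlap. EW3, higher in the order, did overlap EW24 through its replicate 1 (3.42 TPM, against 8.10 and 7.96 TPM in its other libraries).

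The zeros can be bounded. G292 and SAOS2 had no TERT count in a pooled depth at which 3 counts equal 0.0145 CPM (counts scaled to library depth). MG63, the lowest of the other 10 lines at 1.33 CPM (82 counts over 3 libraries), was at least 91.5-fold higher than that floor, and RDES, the highest at 19.8, was at least 1366-fold higher. Taken singly, 3 counts equal 0.0259 CPM in G292 and 0.0330 CPM in SAOS2, so the least folds over either line alone are smaller. U2OS had 4 counts in all, and MG63 was 26.8-fold above it. These limits cover counting error only. In bulk RNA, fewer cells with TERT RNA and less TERT RNA per cell cannot be told apart.

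With the ALT lines set against the other 10 lines, TERT was the 1 gene of the 10 that passed the test, with a log2 fold change of -9.38 (SE 1.48, adjusted p = 0.00889, edgeR quasi-likelihood test with Benjamini-Hochberg adjustment over 24684 genes). In that comparison 2.02% of all genes tested passed, 1.71% as higher and 0.304% as lower in the ALT lines. The size of the change depends on the prior count, because 2 of the 3 lines were at 0, and the call itself was made in all 23 alternative analyses, with log2 fold changes from -12.88 to -8.44 and an adjusted p of at most 0.0217. The 3 ALT lines are all osteosarcomas, whereas 7 of the 10 others are Ewing lines, so in this comparison ALT and tumour type are partly confounded. Within the osteosarcoma lines alone the log2 fold change of TERT was -7.97 (SE 1.70, unadjusted p = 0.00275) but the adjusted p was 0.411 in edgeR's test of 3 against 3 lines, and no gene of 21981 was called (percent called 0, and 2191 genes had an unadjusted p below 0.05). By DESeq2, 978 genes (4.25% of those with an adjusted p) were called there, among them TERT (log2 fold change -8.20, adjusted p = 7.0e-07), and the fit of single libraries with a replicate block (limma) called 171 (0.78%), again with TERT (-7.12, adjusted p = 0.0179). Both comparisons use the same ALT samples.

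TERT was also higher in every Ewing line than in every osteosarcoma line by line means, the lowest Ewing mean being 3.25 TPM in EW24 and the highest osteosarcoma mean 2.65 TPM in KHOS. Of 16538 genes with a mean of at least 1 TPM, 3.69% showed such a separation upward and 2.75% downward. Set against the other 10 lines, the ALT lines lay wholly below in 1.2% of genes and wholly above in 2.29%, and of the 10 genes only TERT did either. Between the tumour types, the libraries of the neighbours EW24 and KHOS overlapped. The line-level test of Ewing against osteosarcoma lines gave a log2 fold change of 2.70 (SE 1.32, adjusted p = 0.19) in edgeR, which did not pass. The limma fit with a replicate block gave 5.53 (adjusted p = 1.7e-05) and called 19.9% of all genes. That fit takes single libraries, with line as a random effect, so its p-value does not rest on lines as units. Where at least 30 counts per library allowed it, 9 lines, the model NM_198253.3, which encodes the full enzyme, held 78.9% ± 7.53 of TERT TPM (SD over lines), from 68.0% in RDES to 93.5% in SKES1. The non-coding model NR_149162.3 held 17.99%.

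DKC1, dyskerin, which binds and stabilises the telomerase RNA and also guides pseudouridylation of ribosomal RNA (gene 1736, chrX:154762864-154777689), was abundant in every line. Its mean ran from 94.8 ± 12.2 TPM in MG63 and 100.04 ± 10.9 TPM in G292, whose libraries overlapped, to 269 ± 28.6 TPM in SKES1, which stood apart above HOS-MNNG. The TERT-negative line SAOS2 had 176 ± 2.50 TPM and KHOS 177 ± 8.18 TPM, without separation. No comparison called DKC1: the log2 fold change was -0.58 (SE 0.30, adjusted p = 0.327, edgeR) in ALT against the other 10 lines and 0.29 (SE 0.26, adjusted p = 0.495, edgeR) in Ewing against osteosarcoma lines. The model NM_001363.5 held 94.1% ± 1.45 of DKC1 TPM over the 13 lines.

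ATRX, a chromatin remodeller that deposits H3.3 with DAXX at telomeric and other repeats (gene 546, chrX:77504880-77786216), had 2.04, 1.99 and 1.86 TPM in the 3 SAOS2 libraries. G292 had 21.1, 18.9 and 19.5 TPM, and U2OS had 39.9, 37.2 and 24.5 TPM. SAOS2 was thus the line far below the rest, and G292 and U2OS lay among them. The other osteosarcoma lines had 15.8 ± 1.80 (KHOS), 19.7 ± 2.70 (MG63) and 20.9 ± 2.20 TPM (HOS-MNNG). The Ewing lines ran through SKES1 with 16.5 ± 5.29, TC71 with 17.3 ± 11.8, MHHES1 with 22.7 ± 1.496, A673 with 25.6 ± 5.97, EW3 with 33.5 ± 3.22 and EW24 with 36.6 ± 6.43 to RDES with 43.4 ± 4.83 TPM. Down the order, libraries of neighbouring lines overlapped except between EW3 and A673 and between KHOS and SAOS2. Above the first break, EW24 and U2OS still reached into the range of A673, with 29.2 and 24.5 TPM in their replicate 3 libraries against up to 30.7 TPM. The wide SD of TC71 came from its replicate 3 library with 3.75 TPM against 24.9 and 23.4 TPM in the others, and its mean without that library was 24.1 TPM.

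The ALT lines as a group passed no test in ATRX. The log2 fold change was -0.17 (SE 0.97, adjusted p = 0.963, edgeR) against the other osteosarcoma lines and -0.46 (SE 0.61, adjusted p = 0.729, edgeR) against the other 10 lines. Without SAOS2 both values changed sign, to 0.36 and 0.07, and again did not pass. The Ewing lines differed from the osteosarcoma lines by 0.45 (SE 0.49, adjusted p = 0.587, edgeR).

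Below the gene level the ALT lines parted further. The tables split ATRX into 11 RefSeq models, and kallisto divides reads among models by likelihood, so the following counts are estimates that share reads between models. In the 11 lines other than U2OS and SAOS2, the curated models NM_000489.6 (11165 nt) and NM_138270.5 (11051 nt) held 20.9 to 56.2% of ATRX counts, or 2110 to 12565 counts per line and 3.16 to 21.6 TPM. They held 0.128 counts in U2OS and 0.000347 counts in SAOS2. G292, with 3708 counts and 5.34 TPM on those models, lay inside the range of the 11 lines, of which it is itself a member.

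In U2OS the predicted models XM_005262157.6 (10961 nt) and XM_017029604.3 (10964 nt) held 97.9, 99.8 and 99.9% of ATRX counts in the 3 libraries, 16020 of 16172 counts in all. In the 11 other lines this pair held 0.752 to 12.004%, with a median of 3.74%, and in SAOS2 8.39%. All 3 U2OS libraries showed it, so the pattern was not that of a single library. In SAOS2 most counts fell on another predicted model, XM_006724668.4 (6044 nt): 86.7, 91.1 and 95.1% in its 3 libraries, of only 193, 185 and 161 ATRX counts. This shorter model held 0 to 1.25% in the 11 other lines and 0.0299% in U2OS. With 539 counts in SAOS2 against 6222 to 23755 in the 11 lines, the SAOS2 split rests on few reads. The tables give no read positions, and which exons were covered was not analysed here. A cause of either pattern was not tested.

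**Figure D2:**
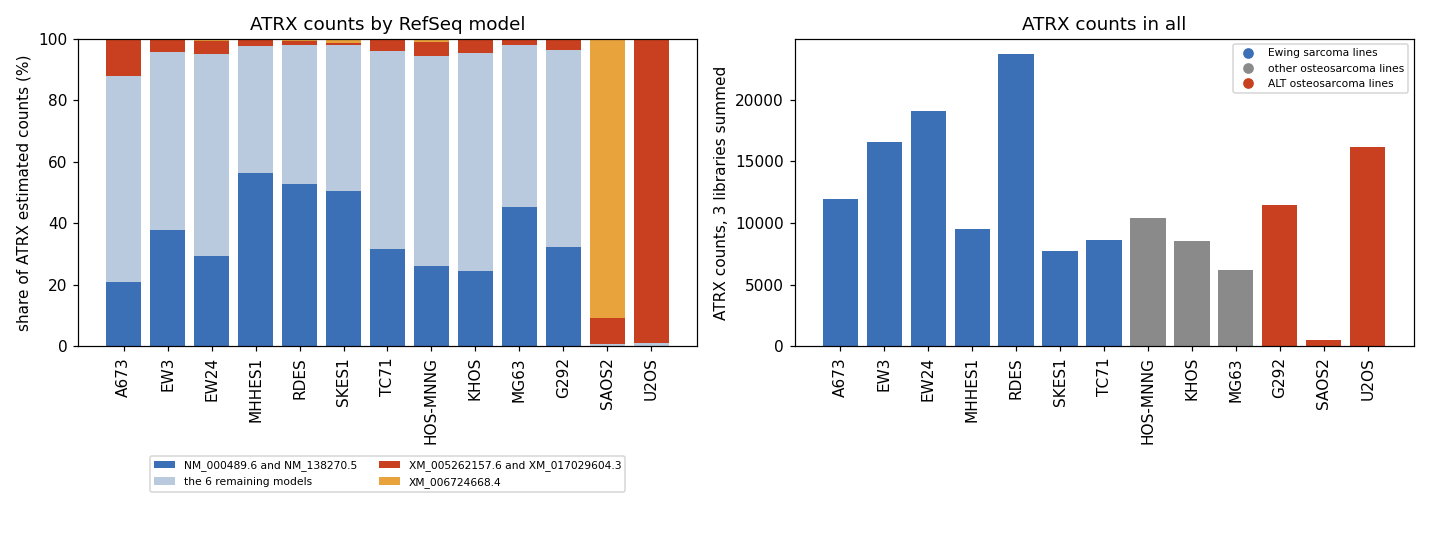
Left, share of ATRX estimated counts (%, y axis) on each class of RefSeq model, stacked per line with 3 libraries summed; right, total ATRX counts per line. U2OS is filled to 99.1% by a pair of models that holds at most 12.004% in the 11 lines other than SAOS2, and SAOS2, with 539 counts, is filled to 90.7% by XM_006724668.4.

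DAXX, the histone chaperone that partners ATRX (gene 1616, chr6:33318558-33322959), had 25.8, 26.2 and 28.2 TPM in the G292 libraries, 63.9, 65.8 and 65.3 TPM in SAOS2 and 79.8, 73.4 and 78.2 TPM in U2OS. G292 was therefore below both other ALT lines, and it was below MG63, the next lowest line, with 35.6, 49.9 and 43.6 TPM. KHOS had 68.6 ± 1.73 and HOS-MNNG 79.7 ± 5.50 TPM. The Ewing lines had 72.1 ± 5.76 in TC71, 76.4 ± 4.38 in A673, 80.8 ± 3.65 in MHHES1, 88.4 ± 23.2 in EW3, 90.6 ± 14.9 in RDES, 91.3 ± 13.5 in EW24 and 104 ± 3.04 TPM in SKES1. From SKES1 down to KHOS each line overlapped the next in the order, and below KHOS each of SAOS2, MG63 and G292 stood apart from the line above it. SAOS2 still overlapped lines further up, EW3 (61.6 TPM in replicate 1) and TC71 (65.6 TPM in replicate 2). DAXX was not called in any comparison, the lowest adjusted p being 0.236 in ALT against the other 10 lines (log2 fold change -0.66, SE 0.28, edgeR). The main model NM_001141969.2 held 62.7% ± 7.05 of DAXX TPM over the lines, with the lowest share in KHOS (53.8%) and the highest in G292 (79.3% ± 10.6). A short model, XM_005248860.4 (1467 nt), held 0.916% ± 1.59 in G292 and 22.7% ± 10.03 in MG63.

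H3-3A, which with H3-3B encodes histone H3.3, the variant that ATRX and DAXX place (gene 3020, chr1:226061831-226072019), spanned a 8.997-fold range. EW3 was highest with 1214 ± 155 TPM, followed by RDES with 661 ± 98.5, MHHES1 with 515 ± 61.0, A673 with 433 ± 28.6, G292 with 364 ± 9.85, EW24 with 304 ± 55.2, MG63 with 276 ± 46.3, TC71 with 248 ± 73.8, U2OS with 192 ± 20.8, SAOS2 with 189 ± 20.7, KHOS with 159 ± 4.73, SKES1 with 136 ± 13.3 and HOS-MNNG with 135 ± 7.13 TPM. EW3 and the lines from MHHES1 to G292 stood apart from the next line down, and EW24 to SAOS2 formed an overlapping run. The Ewing lines thus held both the highest and nearly the lowest H3-3A levels. The log2 fold change of Ewing against osteosarcoma lines was 0.98 (SE 0.39, adjusted p = 0.112, edgeR), which did not pass, and without SKES1 the adjusted p was 0.0473 (edgeR). The limma fit with a replicate block also called H3-3A, as it did 19.9% of all genes. EW3 also differs from the other Ewing lines in the fusion partner it expresses, with ERG at 34.8 TPM and FLI1 at 2.08 TPM, and a link to H3-3A was not tested.

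H3-3B varied less, over a 1.98-fold range from 286 ± 32.7 TPM in EW24 to 565 ± 41.5 TPM in SAOS2. Mean H3-3A exceeded mean H3-3B in 6 of 13 lines: 5 Ewing lines and, of the osteosarcoma lines, G292 alone. In EW24 the libraries of H3-3A (242 to 347 TPM) and H3-3B (251 to 316 TPM) overlapped, and replicate 3 had less H3-3A than H3-3B. Their TPM ratio ran from 0.316 in HOS-MNNG to 4.02 in EW3. The sum of both genes ran from 473 TPM in SKES1 to 1516 TPM in EW3, a 3.20-fold range. Both genes have near-identical processed copies in the genome, so part of these counts could be misassigned, and the model NM_002107.7 held 99.5% of H3-3A TPM.

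**Figure D3:**
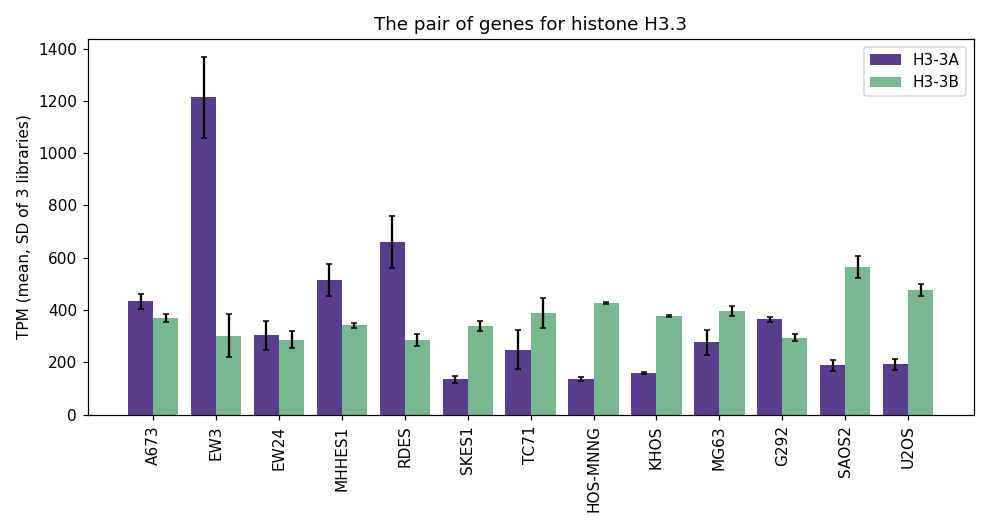
Mean TPM (bars from 0, SD of 3 libraries) of H3-3A and H3-3B in each of the 13 lines. H3-3A is above H3-3B in 6 lines, most in EW3 (ratio 4.02), and below it in HOS-MNNG (ratio 0.316).

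SLX4IP, a partner of the SLX4 nuclease scaffold that has been tied to the choice between ALT and telomerase (gene 128710, chr20:10435305-10628030), was low in all lines but SKES1. SKES1 had 11.7, 13.2 and 15.1 TPM, above every other library of the 13 lines. MHHES1 followed with 6.003 ± 0.207 and EW3 with 5.54 ± 0.411 TPM, then RDES with 4.01 ± 0.0745, TC71 with 3.62 ± 1.25, EW24 with 3.31 ± 0.304 and A673 with 1.96 ± 0.396 TPM. The ALT lines were close together at 2.84 ± 0.240 (G292), 2.78 ± 0.414 (SAOS2) and 3.14 ± 0.510 TPM (U2OS), and HOS-MNNG at 2.87 ± 0.167 TPM lay among them. KHOS had 1.60 ± 0.310 and MG63 1.42 ± 0.0980 TPM. SLX4IP RNA was therefore present in all 3 ALT lines, inside the range of the other lines. It passed neither ALT comparison, the log2 fold change against the other osteosarcoma lines being 0.27 (SE 0.54, adjusted p = 0.886, edgeR) and against the other 10 lines -0.67 (SE 0.58, adjusted p = 0.566, edgeR). In Ewing against osteosarcoma lines it was 1.04 (SE 0.41, adjusted p = 0.104, edgeR), and without SKES1 0.61 (adjusted p = 0.241, edgeR). In that comparison SLX4IP was called in 2 of 23 alternatives, DESeq2 (adjusted p = 0.0437) and the limma fit with a replicate block. They called 21.1% and 19.9% of all genes.

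Of the shelterin genes, TERF1 (TRF1, which binds double-stranded repeats and restrains telomere length, gene 7013) was lower in the ALT lines than in the other osteosarcoma lines. The libraries held 9.42, 12.4 and 11.1 TPM in G292, 14.1, 17.98 and 16.3 TPM in SAOS2 and 20.9, 19.4 and 18.4 TPM in U2OS. MG63 had 23.8, 20.98 and 17.3 TPM, KHOS 27.9, 23.5 and 23.3 TPM and HOS-MNNG 32.9, 33.8 and 34.7 TPM. The line means of the groups did not overlap, although the libraries of U2OS and MG63 did. Such a separation downward was found in 4.14% of 16538 genes and upward in 11.9%, and of the 10 genes TERT and TERF1 showed it. Across all lines the order ran from RDES with 37.4 ± 5.40 TPM to G292 with 10.97 ± 1.48 TPM, and the Ewing line TC71 with 13.9 ± 2.64 TPM (15.4 TPM without its replicate 3) lay below SAOS2 and U2OS. The log2 fold change was -1.08 (SE 0.37, adjusted p = 0.484, edgeR) against the other osteosarcoma lines. Against the other 10 lines it was -0.97 (SE 0.27, adjusted p = 0.0824, edgeR), just short of the threshold, whereas DESeq2 (adjusted p = 0.00311) and the limma fit with a replicate block (adjusted p = 0.0255) called it, as they did 9.42% and 9.31% of all genes. The sign was the same in all 23 alternatives.

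TERF1 also differed between lines in its models. NM_017489.3 is 60 nt longer than NM_003218.4, and the shorter model held from 44.3% ± 5.90 of TERF1 TPM in G292 and 46.3% ± 5.61 in EW3 to 83.5% ± 7.26 in SKES1 and 94.8% ± 5.80 in TC71 (SD, n = 3). In the other ALT lines it held 47.7% ± 9.76 (SAOS2) and 62.4% ± 8.998 (U2OS), and 63.7% ± 2.59 in MG63, 67.9% ± 3.65 in HOS-MNNG and 73.0% ± 5.59 in KHOS. The ALT means were all below those of the other osteosarcoma lines, but the libraries of U2OS (52.1% to 68.8%) and MG63 (61.1% to 66.3%) overlapped, and the means of RDES, EW3 and A673 (61.3% ± 5.91) were also below that of U2OS. No test was made of shares. TERF1 has processed copies elsewhere in the genome, so its counts are less certain than those of single-copy genes.

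**Figure D4:**
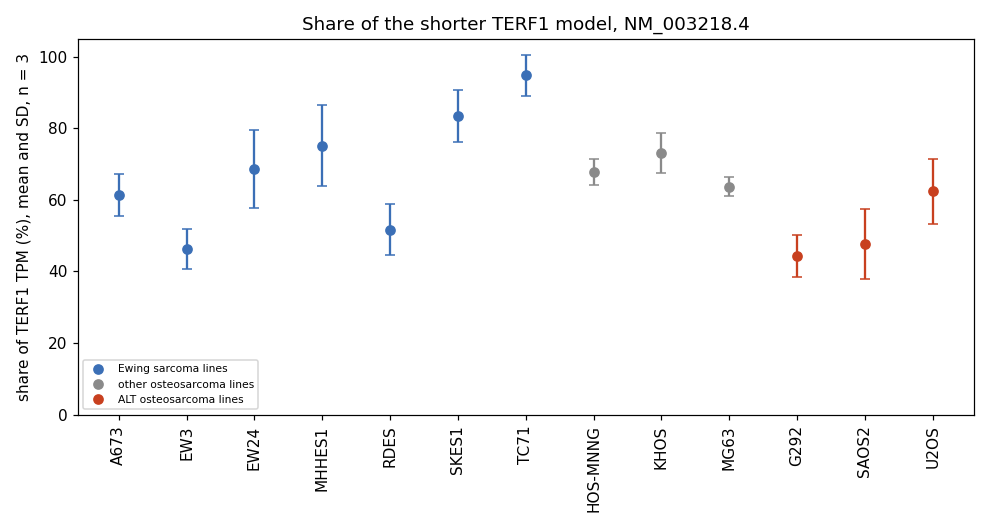
Share of TERF1 TPM on the shorter of its models, NM_003218.4 (%, mean and SD of 3 libraries), in each line; Ewing in blue, other osteosarcoma in grey, ALT in red. The share runs from 44.3% in G292 to 94.8% in TC71, and the 3 ALT lines lie below the 3 other osteosarcoma lines in their means, U2OS within its SD of MG63.

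TERF2 (TRF2, which guards ends against being read as breaks, gene 7014, chr16:69355567-69386007) varied little, from 12.6 ± 2.04 TPM in SKES1 to 31.1 ± 1.79 TPM in RDES. The ALT lines lay together at 21.01 ± 0.869 (SAOS2), 21.2 ± 2.35 (U2OS) and 23.1 ± 1.27 TPM (G292), inside the range of the other osteosarcoma lines, which was 15.4 ± 0.282 (MG63) to 30.3 ± 1.89 TPM (HOS-MNNG). Its log2 fold change was 0.00 (SE 0.24, adjusted p = 0.995, edgeR) in Ewing against osteosarcoma lines, with no stable sign. POT1, which binds the single-stranded overhang (gene 25913, chr7:124822386-124929825), ran from 8.48 ± 0.863 TPM in U2OS to 22.99 ± 1.74 TPM in EW24. Among the ALT lines SAOS2 was higher, with 16.1 ± 0.642 TPM, than G292 with 10.9 ± 1.25 TPM. A673 and G292 were the only neighbours in its order whose libraries did not overlap, although TC71 replicate 3 (8.54 TPM) lay below all G292 libraries. The antisense gene POT1-AS1 shares its locus, and the strand setting of the quantification is not given in the sources used here. ACD (TPP1, which tethers POT1 and recruits telomerase, gene 65057, chr16:67657512-67660260) ran from 17.1 ± 0.391 TPM in SKES1 to 42.8 ± 4.98 TPM in RDES, with the ALT lines at 33.9 ± 3.45 (G292), 25.4 ± 0.713 (SAOS2) and 38.3 ± 2.08 TPM (U2OS). POT1 and ACD passed no comparison. SKES1 thus had the lowest TERF2 and ACD of the 13 lines beside the highest mean SLX4IP, DAXX and DKC1.

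Counted together, 0 of the 10 genes passed in Ewing against osteosarcoma lines, where 14.3% of 21970 genes passed (5.94% higher and 8.4% lower in the Ewing lines). At an unadjusted p under 0.05 there were 2 of the 10, against 6492 of all genes, and DESeq2 and the limma fit with a replicate block called SLX4IP (adjusted p = 0.0437 and 0.0459), with H3-3A and TERT also called by the latter. Over all genes DESeq2 called 21.1% and the limma fit 19.9% in this comparison. The median log2 fold change was 0.42 over the 10 genes and -0.06 over all genes. Against the other 10 lines the ALT lines had a median of -0.62 over the 10 genes and -0.01 over all genes, and within the osteosarcoma lines -0.27 and 0.08. TERT is the lowest value in both ALT comparisons, so its uncertain size does not move these medians, which describe the list and are not a test of it. Without the TC71 replicate 3 library, 0 of the 10 genes passed in Ewing against osteosarcoma lines and 1, TERT, in ALT against the other 10 lines.

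**Figure D5:**
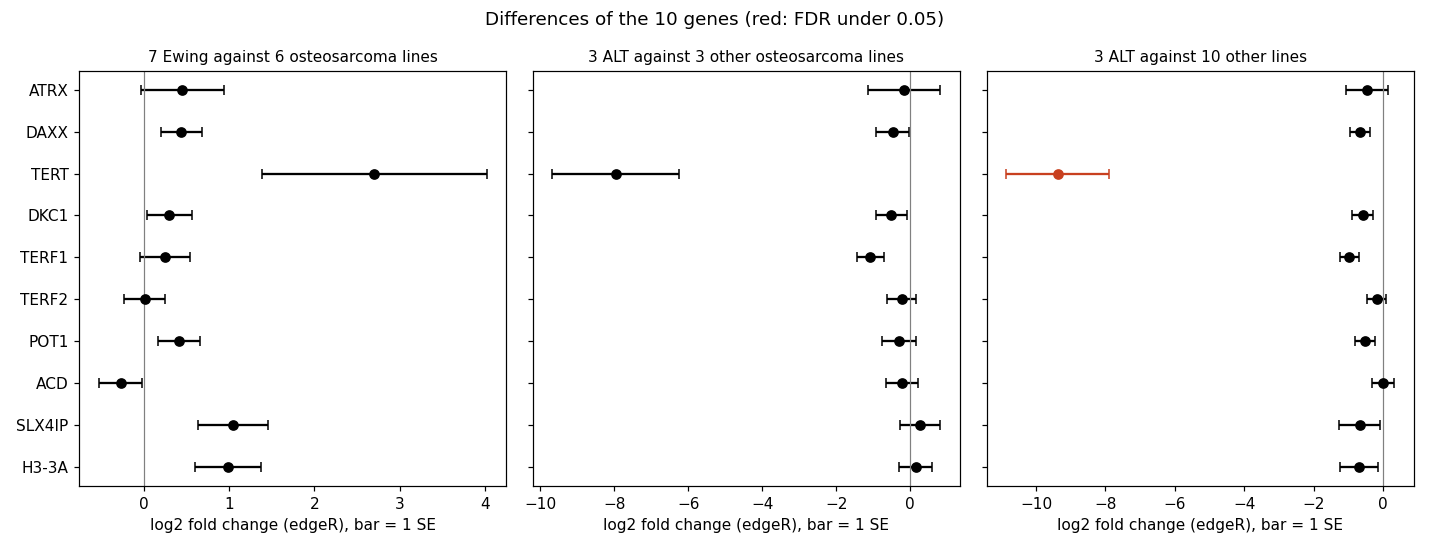
Log2 fold changes (x axis, points) of the 10 genes, by comparison. Panels show Ewing against osteosarcoma lines, ALT against the other osteosarcoma lines and ALT against the other 10 lines. Bars are 1 SE, worked out from the F statistic of edgeR. Scales differ between panels, and red marks an adjusted p under 0.05. TERT in ALT against the other 10 lines, at -9.38, is the only red point.

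The rest of the pathway was read from 81 further genes of shelterin, telomerase assembly, end processing, H3.3 chaperones and heterochromatin, ALT recombination and TERT regulation. In Ewing against osteosarcoma lines 5 passed as higher and 4 as lower, 11.1% of the list against 14.3% of all genes tested. Higher in the Ewing lines were BLM, the helicase that dissolves recombination intermediates (log2 fold change 0.997, SE 0.20, adjusted p = 0.00643, edgeR), its partner RMI1 (0.96, adjusted p = 0.0197, edgeR), CBX5, the heterochromatin protein HP1 alpha (0.93, adjusted p = 0.0170, edgeR), DCLRE1B, the Apollo nuclease (0.67, adjusted p = 0.0499, edgeR), and TIMELESS, a replication fork protector (0.51, adjusted p = 0.0427, edgeR). BLM was at 28.9 ± 6.24 TPM in the Ewing lines (SD, n = 7) and 13.03 ± 1.83 TPM in the osteosarcoma lines (n = 6), with line means of 22.9 to 40.7 and 10.8 to 15.8 TPM. Those ranges did not overlap, as was so for 3.69% of genes in this direction, and within the osteosarcoma lines BLM was alike in ALT (13.5 ± 2.08 TPM, n = 3) and other lines (12.5 ± 1.82 TPM, n = 3).

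Lower in the Ewing lines were MXD1, a repressor of MYC targets including TERT (-1.83, SE 0.52, adjusted p = 0.0316, edgeR), PML, the scaffold of the nuclear bodies that hold telomeres in ALT cells (-1.30, SE 0.33, adjusted p = 0.0192, edgeR), TEP1, a telomerase-associated protein (-1.02, adjusted p = 0.0383, edgeR), and STN1, of the CST end-replication complex (-1.003, adjusted p = 0.0387, edgeR). PML was at 15.5 ± 5.82 TPM in Ewing and 31.1 ± 11.4 TPM in osteosarcoma lines. Within the latter it was 25.05 ± 9.63 TPM in ALT and 37.2 ± 11.1 TPM in the other lines, with overlapping line means. BLM, RMI1, CBX5 and PML were called in all 23 alternatives, and MXD1 in 16, TEP1 in 12, STN1 in 11, TIMELESS in 10 and DCLRE1B in 5 of them.

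In ALT against the other 10 lines 0 of the 81 genes passed (2.02% of all genes did), with 17 at an unadjusted p under 0.05 in edgeR, as were 4440 of all 24684 genes. In the osteosarcoma lines alone 0 of 80 tested passed (0 of all genes), with 8 at an unadjusted p under 0.05 beside 2191 of all 21981 genes. The shelterin gene TINF2, singled out here after its values were seen, was at 43.8 ± 5.38 TPM in the ALT lines and 25.2 ± 2.30 TPM in the other osteosarcoma lines. Its line means were 40.02 to 49.97 TPM in the ALT lines, 22.6 to 26.8 in the other osteosarcoma lines and 15.9 to 36.9 TPM in the Ewing lines. Of all genes 11.9% lay wholly above the other osteosarcoma lines in this way, and 2.29% above the other 10 lines. It passed neither against the other osteosarcoma lines (log2 fold change 0.48, SE 0.33, adjusted p = 0.645, edgeR) nor against the other 10 lines (0.70, SE 0.23, adjusted p = 0.137, edgeR). TERC, the telomerase RNA, which has no poly(A) tail, reached at most 3.03 TPM in any line and is not read from these poly(A) libraries.

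HOS-MNNG and KHOS, derivatives of a single tumour, give a scale for how far related lines can differ. The libraries of the pair did not overlap for 9 of the 10 genes, ACD being the exception, and the same held for 58.9% of the 16538 genes with a mean of at least 1 TPM. HOS-MNNG was 1.87-fold higher in POT1, 1.79-fold in SLX4IP and 1.69-fold in TERF2, and its TERT was 0.523 of that in KHOS. TERF2 models also differed between them: NM_005652.5 held 65.4% ± 2.80 of TERF2 TPM in HOS-MNNG and 35.4% ± 4.57 in KHOS, where the short model XM_047434552.1 (1548 nt) held 45.9% ± 3.82. With 1 pair of lines these are values without a test between lines.

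The genes whose levels ran most like those of 4 of the genes were listed by Pearson correlation of mean log2(TPM + 1) over the 13 lines among 16538 genes. For TERT these were VAX1 (r = 0.956), LOC105369782 (0.950) and ERCC8 (0.938), and for ATRX CLUAP1 (0.896), SNORD29 (0.887) and TTI1 (0.878). For DAXX they were PTPRF (0.937), NUDT11 (0.912) and CYCS (0.906), and for SLX4IP AMPD1 (0.928), MAPT-IT1 (0.892) and PRIMA1 (0.890). These are the highest of many correlations over lines that share a tumour type, and they are given as a description. With a pseudocount of 0.1 in place of 1, 6 of the 12 stayed among the 3 most alike, and MAPT-IT1 moved to rank 34, ERCC8 to 14, PRIMA1 to 13 and CYCS to 10.

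With doxycycline induction of the KCNN1 hairpin in A673 cells, 0 of the 10 genes passed the threshold. KCNN1 itself was at 30.4 ± 10.8 TPM in the uninduced cells and 10.6 ± 3.02 TPM in the induced cells (SD, n = 3). Without doxycycline TERT was at 1.23, 1.53 and 3.67 TPM, and with the drug at 0.809, 1.15 and 2.14 TPM. Replicate 3 was the highest library of either arm, and the arms overlapped, but TERT was lower with doxycycline in all 3 pairs of the same number. Only replicate 3 was set apart by its number in the data, and pairs 1 and 2 rest on the labels. SLX4IP, TERF1 and H3-3A were also lower in all 3 pairs, TERF1 by ratios of 0.957 to 0.970, and DKC1 was higher in all 3. Of 13187 genes with a mean of at least 1 TPM in these libraries, 20.2% were lower and 13.5% higher in every pair, and nothing is read from the 4 lower and 1 higher among the 10. The log2 fold change of TERT was -0.59 (SE 0.40, adjusted p = 1, edgeR), that of SLX4IP -0.40 (SE 0.38) and those of the other 8 genes between -0.21 and 0.16. No gene of 14252 was called in this fit (percent called 0), while 94 had an unadjusted p below 0.05, and 2 were called by DESeq2. With the replicate number as a block 73 genes were called, and without replicate 3 of both arms 28, in neither case any of the 10. With that block the log2 fold change was -0.58 for TERT (SE 0.21, unadjusted p = 0.0189, adjusted p = 0.271, edgeR), -0.38 for SLX4IP (adjusted p = 0.462), -0.20 for H3-3A (adjusted p = 0.385), -0.02 for TERF1 (adjusted p = 0.950) and 0.16 for DKC1 (adjusted p = 0.459). Replicate 3 differed from the others in the same way in both arms: ATRX was 2.41-fold the mean of the other libraries without and 1.94-fold with doxycycline, POT1 2.22-fold and 1.91-fold, and DKC1 0.635 and 0.631 of it.

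Parental A673 had higher mean TERT than the sh908 cells, 5.97 ± 0.960 TPM against 2.15 ± 1.33 TPM without doxycycline, and higher ATRX, 25.6 ± 5.97 against 11.01 ± 6.13 TPM, and DKC1, 207 ± 6.09 against 118 ± 28.4 TPM. Without the sh908 replicate 3 library that stood apart, the sh908 means were 1.38 TPM for TERT, 7.498 TPM for ATRX and 134.7 TPM for DKC1. ACD went the other way, 34.2 ± 1.98 against 45.9 ± 8.30 TPM (41.2 TPM without that library), as did H3-3A, 433 ± 28.6 against 641 ± 271 TPM (484.6 TPM without it), and DAXX was alike at 76.4 ± 4.38 and 74.1 ± 2.30 TPM. These differences were not tested.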

How the data were processed

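Poly(A) RNA of 45 libraries was extracted with a NucleoSpin RNA Plus kit and prepared with an Illumina TruSeq Stranded mRNA kit, per the labels. The submitters' processing notes name fastp 0.19.5, kallisto 0.46.2 and the builds hg38 and GRCh38.p14, without roles. The authors deposited, per library, estimated counts, TPM and transcript and effective lengths for 177816 RefSeq transcripts (other units: lengths in nucleotides, deposited by the authors). Here 169966 transcripts (95.6%) were matched to gene symbols on GRCh38.p14. The unmatched ones held 0.915 to 1.60% of a library's counts. Estimated counts and TPM were summed per gene.

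Libraries of a line were summed, the sums rounded and tested with edgeR 4.0.16 (R 4.3.3; filterByExpr, TMM, robust quasi-likelihood, Benjamini-Hochberg over all genes, threshold 0.05). The sh908 libraries were tested singly. Each SE was worked out as the absolute log2 fold change over the square root of the F statistic of edgeR. Such an SE is approximate for TERT, where some lines held no count. The low count filter removed none of the 10 genes in any comparison, so the exact permutation test planned for such genes, with its pseudocounts, was not needed. Alternatives used DESeq2 1.42.0, limma 3.58.1 (voom, line as random effect, replicate block), other normalization, no filter, length-scaled TPM and left-out lines, replicates or libraries. The edgeR tests were also run on simulated counts, with changes set only in genes above a fixed level. Those runs do not cover a gene absent from some lines, such as TERT, and no result is read from them. In the sh908 cells, libraries with the same number deviated together from their arm's mean (r = 0.683, 0.582 and 0.881, all above 0.1). The numbers were therefore taken as pairs there. Unlike numbers did so too for replicates 1 and 2 (r = 0.608 for 1 without and 2 with doxycycline, 0.517 for the reverse). Replicate 3 alone was set apart by its number, with r from -0.778 to -0.658 against the others. Pairs 1 and 2 thus rest on the labels.

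Named were the 10 genes in every comparison, up to 5 called pathway genes each way by fold change, the 3 genes most like ATRX, DAXX, TERT and SLX4IP (mean of at least 1 TPM), and H3-3B. TINF2 and TERC were named outside this rule, after their values were seen. The 10 genes and the lists were chosen with earlier results of these data known. Transcript shares were computed where every library of a line held at least 30 counts. Promoter sequences are from RefSeq (GRCh38.p14), matched for 6 of the 10 genes.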

Additional observations from a re-analysis of the deposited data

Results flagged for a closer look

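SLX4IP in SKES1 was flagged because a single line lay far from the rest of its group: its mean of 13.3 TPM stood above the next Ewing line, MHHES1 with 6.003 TPM, by 64.4% of the whole range of the 7 Ewing lines. Of 22 groups checked (10 genes and H3-3B in the Ewing and in the osteosarcoma lines) this was 1 flag, and chance flags about 1 in 20. All 3 SKES1 libraries were high, at 11.7, 13.2 and 15.1 TPM. A cause was not tested.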

How the results depend on the processing

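The number of genes called over the whole transcriptome moved with the test, the filter and the design. DESeq2 changed the test and the low count filter together, with 37204 genes entered in Ewing against osteosarcoma lines in place of 21970. In Ewing against osteosarcoma lines it was 3151, and 6203 with DESeq2. In ALT against the other osteosarcoma lines it was 0, with 978 by DESeq2 and 171 by the limma fit, which takes single libraries with a replicate block and line as a random effect and so changes several choices together. In ALT against the other 10 lines it was 498, with 2620 by DESeq2, 1017 without a filter and 2216 by that limma fit, and 84.9% of the calls were higher in the ALT lines against 49.8% with DESeq2 and 71.6% with the limma fit. In the sh908 cells it was 0, with 73 with the replicate block and 2 with DESeq2. Leaving out a line, a replicate or a library gave 2296 to 3177, 0 to 0, 271 (without MHHES1) to 818 (without MG63) and 0 to 28 calls, in that order of comparisons. The causes were not tested.

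Signs turned only for values near 0 or resting on a single line, none of them called. For Ewing against osteosarcoma lines, TERF2 was -0.00394 with relative log expression normalization, -0.00551 with length-scaled TPM and -0.0572 to 0.171 with a line, replicate or library left out (-0.0113 without replicate 1). For ALT against the other osteosarcoma lines the left-out ranges were -0.574 to 0.0596 for POT1, -0.418 to 0.110 for TERF2, -0.377 to 0.407 for H3-3A and -0.935 to 0.360 for ATRX (the last without SAOS2). For ALT against the other 10 lines ATRX ran from -1.20 to 0.0732 and ACD from -0.131 to 0.162 (-0.0392 without replicate 2), with ACD at -0.00515 by DESeq2, -0.0327 without a filter and -0.00694 with length-scaled TPM. Across the 13 lines replicate numbers were not taken as pairs, since correlations at the same number reached down to -0.160 (mean 0.0112, and -0.00558 for other numbers). Of 39 libraries 22 correlated best with their own number, where an even spread gives 13, which is a hint of pairing from the data and not from the design. In the sh908 cells TERT ran from -0.824 to -0.275 and SLX4IP from -0.580 to -0.0722 over all 11 alternatives, none of them called. Depth sets how low TERT can be read in the ALT lines, where 4 counts were found in all. MG63, the line with the smallest total, gave 82 TERT counts.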
